A study of Mus musculus with 4 samples.

Results

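The canonical WNT pathway was examined through 58 of its genes in maps of 5-hydroxymethylcytosine (5hmC) from a chondrogenic cell line. The genes were chosen by name, with earlier results of these data known. The set held 15 Wnt ligands, 10 Frizzled receptors, 2 Lrp coreceptors, 3 Lgr receptors, 3 R-spondins, 9 secreted inhibitors, 8 genes of β-catenin control and 8 nuclear factors. These 58 stood among 21900 protein-coding genes. They took 190 of the 56695 day 20 peaks and 3 of the 1050 day 0 peaks, counted by the gene symbol that the authors gave to each peak.

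The cells were ATDC5, a mouse line that behaves as a chondroprogenitor until insulin, transferrin and selenite are added and then differentiates into chondrocytes. The chondrocyte group had 2 libraries, from days 19 and 20 in that medium, and the chondroprogenitor group had 2 libraries from day 0. All came from 1 cell line, and no other treatment or genotype is given. For each stage the samples were merged and 1 list was deposited of peaks enriched 10-fold, without a height, fold or p-value for any of them. A peak is therefore present or absent in a list, and no comparison between stages carries a test. The lists hold no expression values, so the stage labels were not checked against cartilage markers.

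5hmC is made from 5-methylcytosine by the TET dioxygenases and is often found within the bodies of transcribed genes. In the canonical pathway, a Wnt ligand binds a Frizzled receptor together with Lrp5 or Lrp6. A complex of Axin, Apc and Gsk3b then stops marking β-catenin for destruction, and β-catenin joins TCF and LEF factors on DNA. In cartilage, strong canonical signalling is known to oppose early chondrogenic commitment and to favour later hypertrophy.

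At day 20, 50 of the 58 genes (86.2%, 75.1 to 92.8%) carried at least 1 peak, against a background of 43.8% of all protein-coding genes and 45.6% of those with a curated transcript. At day 0, 3 genes did (5.17%, 1.77 to 14.1%), against a background of 1.81%. A peak at day 20 and none at day 0 was found for 47 genes (81.0%), with a background of 42.2%. The day 20 list is many times longer than the day 0 list, so the difference between stages in these counts cannot be told apart from list length.

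Peak number varied widely among the genes. There were 8 genes with no day 20 peak, 15 with 1, 21 with 2 to 4 and 14 with 5 or more. The share with at least 2 peaks was 60.3%, against a background of 25.3%, and the share with at least 5 was 24.1%, against 8.48%. Neither background was matched for length, and pathway genes were longer, with a median of 36.1 kb against 17.1 kb for other protein-coding genes. Over 100 kb, where 9 of the 14 genes with 5 or more lay, that share was 81.8%, against 49.5% of other genes. At 30 to 100 kb it was 18.2% against 12.3%, and at 10 to 30 kb 1 of 10 genes against 0.372%. No gene under 10 kb had as many. The pathway share with at least 2 peaks was the higher in each length class. The median was 2 peaks per pathway gene and 0 per other protein-coding gene. Tcf7l2, Tcf7l1, Lrp6 and Lef1 together held 60 of the 190 peaks (31.6%). Of the 190, 12 (6.32%) also lay in another annotated gene, 5 of them at Tcf7l1 and 1 each at Fzd4 (in Tmem135), Wnt2b (in St7l), Wnt9a (in Gm51865), Tcf7l2 (in Gm31734), Lef1 (in Gm36603), Fzd6 (in Gm26704) and Rspo1 (in Gm12930).

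**Figure D1:**
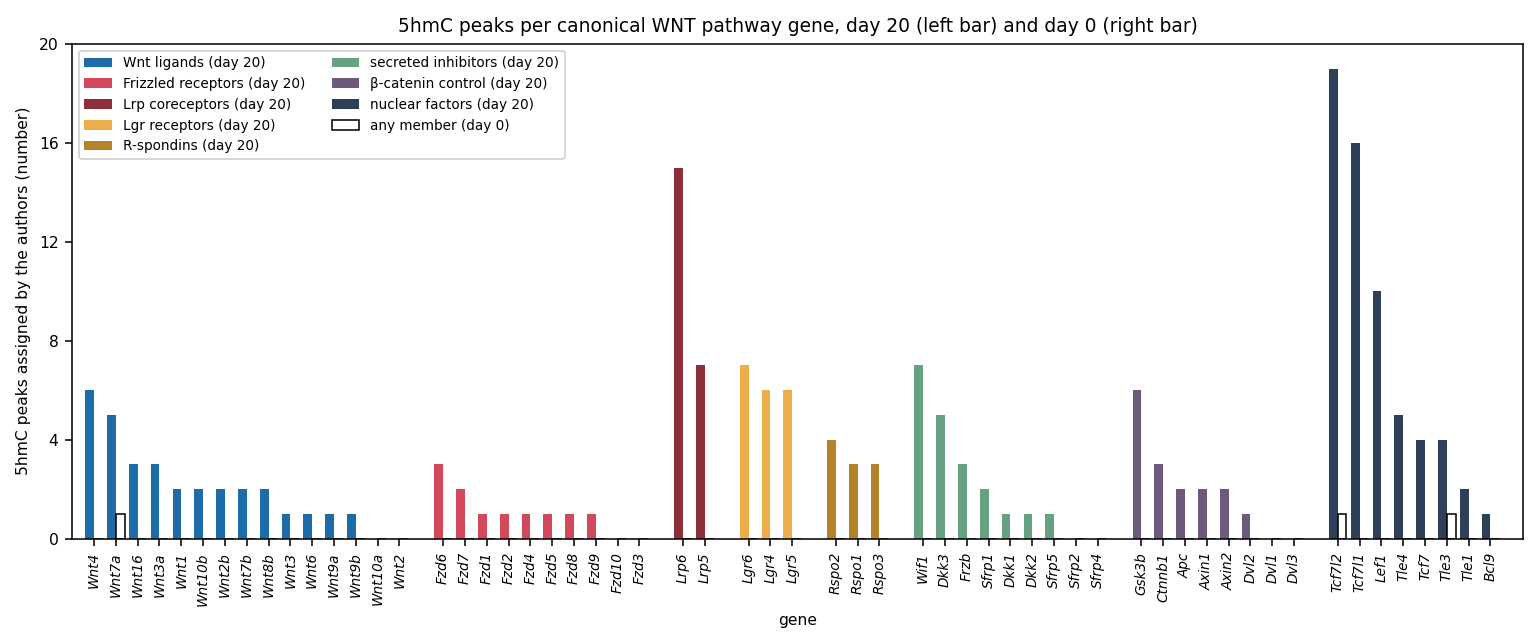
Number of 5hmC peaks that the authors assigned to each of the 58 genes, at day 20 (coloured left bar) and day 0 (white right bar), grouped by role. The highest bars are Tcf7l2 with 19, Tcf7l1 with 16 and Lrp6 with 15, and the 3 white bars of 1 peak each stand at Wnt7a, Tcf7l2 and Tle3.

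Gene length bears on these counts, because a longer gene has more room for a peak. Among genes under 10 kb, 12 of 15 pathway genes (80.0%, 54.8 to 93.0%) carried a day 20 peak, with a background of 18.6% in that length class. Between 10 and 30 kb it was 7 of 10 (70.0%, 39.7 to 89.2%), with a background of 43.5%, an interval that includes the background. Between 30 and 100 kb it was 20 of 22 (90.9%, 72.2 to 97.5%), with a background of 66.4%. Over 100 kb it was 11 of 11 (100%, 74.1 to 100%), with a background of 79.9%. The gap to the background was widest in the shortest class, where 8 of the 15 genes were Frizzled receptors. Per 10 kb of gene, the pathway genes held 0.631 peaks and the other protein-coding genes 0.306. Without Tcf7l1 and Tcf7l2 the density of the pathway genes was 0.583.

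**Figure D2:**
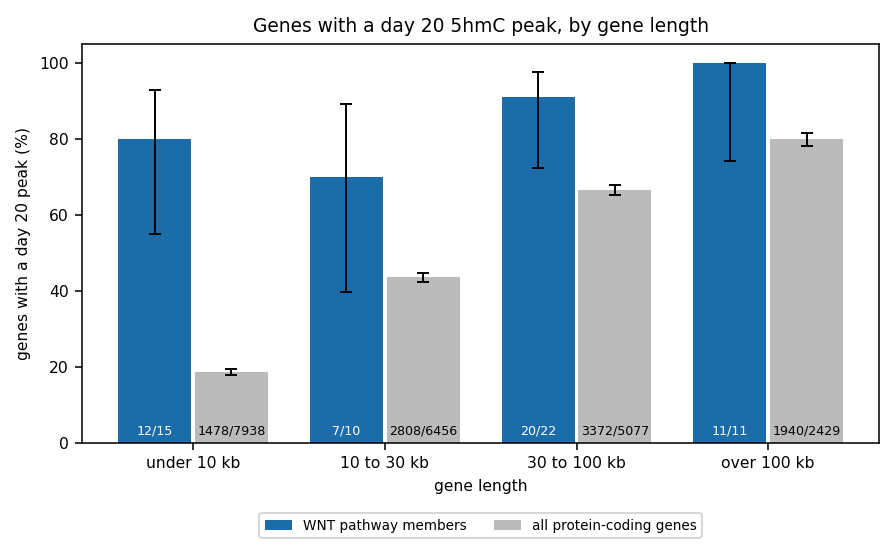
Percentage of genes with a day 20 peak in 4 classes of gene length, for the pathway genes (blue, left) and all protein-coding genes (grey, right). Error bars are Wilson 95% intervals and the numbers in the bars are genes with a peak out of genes in the class. The blue bar is the higher in each class, by most under 10 kb (80.0% against 18.6%).

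Wnt ligands are the secreted lipid-modified proteins that start the signal. Of these, 13 of 15 (86.7%, 62.1 to 96.3%) carried a day 20 peak, with a background of 43.8% of all protein-coding genes. At 30 to 100 kb, 6 of 7 ligand genes had a peak, in a class with a background of 66.4%. At 10 to 30 kb it was 5 of 6, with 43.5%, and under 10 kb 2 of 2, with 18.6%. The ligands held 31 peaks, a median of 2 per gene. Wnt4 held 6 peaks in and beside its 21.9 kb on chromosome 4. It was 1 of 11 genes among 6456 in its length class (0.170%) with that many. The count of 6 includes 2 peaks outside the gene, and the smallest gap between neighbouring peaks was 42 bp. Wnt7a, a ligand active in limb patterning, held 5 peaks across 47.4 kb on chromosome 6, and 12.3% of its length class had as many. Wnt16 held 3, and none of them lay in the gene, with midpoints 1315, 6279 and 7998 bp before its start. Wnt2 and Wnt10a had no peak, and the nearest day 20 peaks lay 10.7 kb and 3.75 kb from these genes.

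Ligand genes lie in neighbouring pairs in the mouse genome, and 4 such pairs were among the 15. The interval of Wnt10b and Wnt1 on chromosome 15 (98770712 to 98793830, GRCm38) held 4 day 20 peaks in 23.1 kb, 2 assigned to each gene. Wnt3a and Wnt9a on chromosome 11 had 4 in 85.5 kb, 3 assigned to Wnt3a and 1 to Wnt9a. Wnt9b and Wnt3, which overlap on chromosome 11, had 1 each in 90.7 kb. Wnt6 and Wnt10a on chromosome 1 had 1 in 49.8 kb, assigned to Wnt6. None of the 4 intervals held a day 0 peak.

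Of the 13 ligands with a RefSeq start window, Wnt1 and Wnt4 had a day 20 peak within 1 kb of the start. The peaks of Wnt1 spanned 564 bp (98789127 to 98789690) and 587 bp (98790066 to 98790652), on either side of the start at 98789857. The first reached 84 bases into the start window, the 300 bases from 250 before the start to 50 after it. Wnt4 had a peak of 611 bp (137276383 to 137276993 on chromosome 4) that ended 391 bases before its start window. The windows, from RefSeq on GRCm38.p6, are shown for where the peaks stop relative to CpG-rich sequence. In Wnt1 (chr15:98789607-98789906, plus strand) capitals mark the bases under the peak, and in Wnt4 (chr4:137277385-137277684, plus strand) capitals mark each CG.
Wnt1: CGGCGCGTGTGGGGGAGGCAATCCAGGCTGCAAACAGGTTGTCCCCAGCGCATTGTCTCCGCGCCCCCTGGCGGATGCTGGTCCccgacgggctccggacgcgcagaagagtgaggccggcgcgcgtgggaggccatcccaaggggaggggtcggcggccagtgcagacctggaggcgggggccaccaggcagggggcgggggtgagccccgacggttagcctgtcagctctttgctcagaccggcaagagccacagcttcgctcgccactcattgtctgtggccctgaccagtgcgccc
Wnt4: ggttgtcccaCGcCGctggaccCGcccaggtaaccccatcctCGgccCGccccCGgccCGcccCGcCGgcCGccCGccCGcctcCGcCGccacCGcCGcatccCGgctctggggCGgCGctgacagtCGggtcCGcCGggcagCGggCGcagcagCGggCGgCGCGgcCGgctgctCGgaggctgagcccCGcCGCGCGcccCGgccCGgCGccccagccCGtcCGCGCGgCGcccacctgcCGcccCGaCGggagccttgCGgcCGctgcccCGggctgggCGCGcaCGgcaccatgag
The Wnt1 window held 26 CG pairs, 7 of them under the peak. The Wnt4 window held 51, against a median of 13 in the windows of other protein-coding genes.

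Of the Frizzled receptors, the membrane proteins that bind Wnt, 8 of 10 (80.0%, 49.0 to 94.3%) carried a day 20 peak, with a background of 43.8%. Of these receptors, 8 were under 10 kb, where the background was 18.6%, and 7 of the 8 had a peak. They held 11 peaks, 5 of them with a midpoint outside the gene. Fzd6 held 3, of which 2 lay in its 32.0 kb and 1 lay outside by 1784 bp. It carried the widest of the group, 1561 bp on chromosome 15 (39019917 to 39021477). Fzd7 held 2, of 526 bp upstream and 1008 bp inside a gene of 4.81 kb. Fzd1, Fzd2 and Fzd5 had 1 peak each, inside genes of 3.63 to 7.19 kb. Fzd4, Fzd8 and Fzd9 had 1 each, outside the gene by 1038, 2757 and 6781 bp. The peak of Fzd4 lay in another gene, Tmem135. Fzd3 and Fzd10 had none, with the nearest day 20 peaks 64.1 kb and 202 kb away. By overlap with the gene body alone, 5 of 10 receptors had a peak, since those of Fzd4, Fzd8 and Fzd9 no longer counted. The background for gene body overlap was 40.5%.

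The coreceptors Lrp5 and Lrp6, which Wnt brings together with Frizzled, held 22 peaks, all inside the genes. Lrp6 held 15 in 120 kb on chromosome 6 and Lrp5 held 7 in 102 kb on chromosome 19. Of the genes over 100 kb, 12.4% had as many as Lrp6 and 38.6% as many as Lrp5. Those of Lrp6 were narrow, with a median width of 486 bp and a maximum of 763 bp. Those of Lrp5 were wider, with a median of 1144 bp. The widest, of 5126 bp (3639372 to 3644497), ranked 3 among all 56695 day 20 peaks. With about the same gene length, Lrp5 had fewer peaks but more covered bases, 11560 bp against 7799 bp for Lrp6.

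The Lgr receptors, which bind R-spondins and raise Frizzled and Lrp levels at the membrane, all carried day 20 peaks, 3 of 3 (100%, 43.9 to 100%). The background was 79.9% in the length class of Lgr5 and Lgr6 and 66.4% in that of Lgr4. Lgr6 held 7, Lgr4 held 6 and Lgr5, known as a stem cell marker in several tissues, held 6. Lgr5 and Lgr6 are over 100 kb long, and 43.2% and 38.6% of genes in that class had as many, while 7.03% of the class of Lgr4 did. Lgr6 had the widest, 1937 bp (135094900 to 135096836 on chromosome 1). Of the 6 peaks of Lgr5, 2 lay outside the gene, by 5527 and 6258 bp. The R-spondins, their secreted ligands, had 4 peaks at Rspo2, 3 at Rspo1 and 3 at Rspo3. So 3 of 3 carried a peak (100%, 43.9 to 100%), and 1 peak of Rspo1 lay outside the gene. The length classes of Rspo2, Rspo1 and Rspo3 had backgrounds of 79.9%, 43.5% and 66.4%. Rspo2 was the sparsest of the R-spondins, at 0.265 peaks per 10 kb over 151 kb, with gaps between peaks of 35306 to 50533 bp. Of the genes over 100 kb, 56.2% had as many peaks as Rspo2. The widest of the R-spondin peaks was 894 bp, in Rspo1 (124992858 to 124993751 on chromosome 4).

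**Figure D3:**
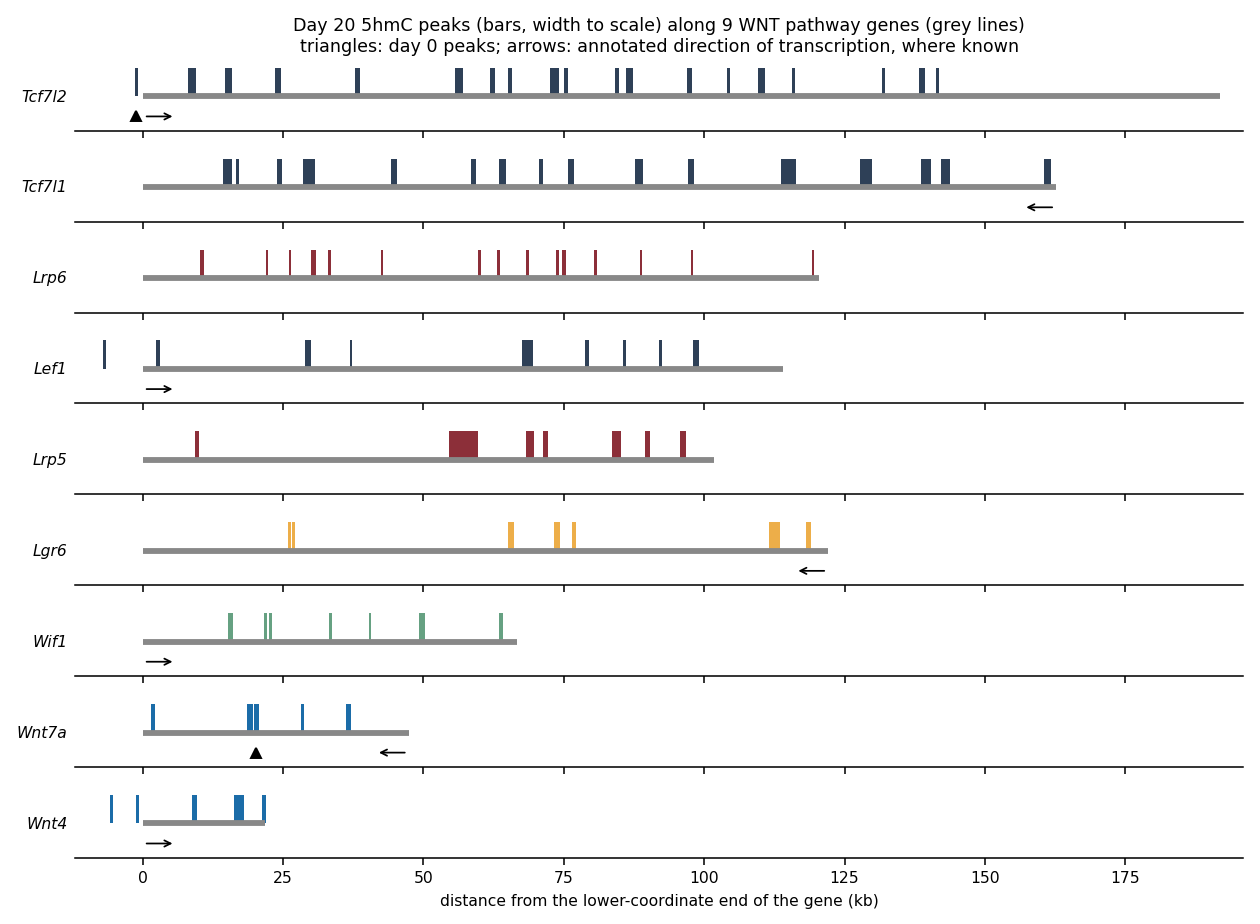
Day 20 peaks (coloured bars, width to scale) along 9 genes (grey lines), by distance in kb from the lower-coordinate end of the gene. Black triangles are day 0 peaks and arrows give the direction of transcription where it was known. The 16 peaks of Tcf7l1 have a median width of 1257 bp and the 15 of Lrp6 one of 486 bp, 1 bar of Lrp5 is 5126 bp wide, and both triangles stand at a day 20 bar.

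Of the secreted inhibitors, 7 of 9 (77.8%, 45.3 to 93.7%) carried a day 20 peak, 20 in all. The interval lies just above the background of 43.8%. All 5 inhibitor genes of 30 to 100 kb had a peak, in a class with a background of 66.4%, and 2 of the 4 under 10 kb did, with a background of 18.6%. Wif1, which binds Wnt proteins outside the cell, held 7 across 66.6 kb on chromosome 10. In its length class 4.14% of genes had that many. Dkk3 held 5, among them the widest of the group, 1402 bp (112136200 to 112137601 on chromosome 7). Frzb, a Frizzled-related decoy receptor first found in cartilage, held 3 narrow peaks of 324 to 473 bp in 35.4 kb. Dkk1, which blocks Lrp5 and Lrp6, had 1 peak of 638 bp on chromosome 19 (30545243 to 30545880). This peak overlapped only the last few bases of the gene, and its midpoint lay 315 bp beyond the gene end. Sfrp1 held 2, and Sfrp5 and Dkk2 held 1 each. Sfrp2 and Sfrp4 had none, with the nearest day 20 peaks 9.27 kb and 4.65 kb away.

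Of the genes that control β-catenin, 6 of 8 (75.0%, 40.9 to 92.9%) carried a day 20 peak, an interval that includes the background of 43.8%. Over 100 kb it was 2 of 2, with a background of 79.9%, and at 30 to 100 kb 2 of 2, with 66.4%. At 10 to 30 kb it was 1 of 3, with 43.5%, and under 10 kb 1 of 1, with 18.6%. All 16 peaks lay inside the genes. Gsk3b, a kinase that marks β-catenin for destruction, held 6 in 157 kb, with a stretch of 61446 bp between neighbours that held none assigned to it. Of the genes over 100 kb, 43.2% had as many. Ctnnb1, which encodes β-catenin itself, held 3 in 27.1 kb. Axin2, a scaffold of the destruction complex and a widely used target gene of the pathway, held 2 in 33.0 kb, of 661 and 1061 bp, at 0.764 and 0.920 of the way from its start to its end. Axin1 held 2, among them the widest of the group, 1733 bp (26187224 to 26188956 on chromosome 17). Apc held 2 and Dvl2 held 1. The Dishevelled genes Dvl1 and Dvl3 had none, with the nearest day 20 peaks 35.4 kb and 37.9 kb away. This group had the lowest density of the 8, at 0.379 peaks per 10 kb, close to the 0.306 of other protein-coding genes.

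The nuclear factors all carried a day 20 peak, 8 of 8 (100%, 67.6 to 100%), and held 61 peaks, 32.1% of those of the pathway. All 8 genes were over 30 kb long, in the classes where the background was 66.4% and 79.9%. Tcf7l2, a DNA-binding partner of β-catenin, held 19 in and beside its 192 kb on chromosome 19. Of the 2429 genes over 100 kb, 7.33% had that many. Tcf7l1, which acts mainly as a repressor, held 16 in 163 kb on chromosome 6, and 10.5% of the class had that many. Of these 16, 5 also lay in Gm31391 or Gm31249, genes that overlap Tcf7l1. The source of the signal cannot be told apart between overlapping genes. Lef1 held 10 in and beside 114 kb on chromosome 3, and 25.8% of the class had as many. The corepressors Tle4, Tle3 and Tle1 held 5, 4 and 2, Tcf7 held 4, and the coactivator Bcl9 held 1. As many as in Tle4 were found in 49.7% of its class.

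Peaks in Tcf7l1, Tcf7l2 and Tcf7 were also wide. Tcf7l1 peaks had a median of 1257 bp, and 12 of 16 were 1000 bp or wider. The widest spanned 2833 bp (72739964 to 72742796 on chromosome 6) and ranked 58 in the day 20 list. For Tcf7l2 the median was 887 bp, with 9 of 19 at that width, and for Tcf7 it was 1105.5 bp, with 3 of 4. In Lef1 the median was 575.5 bp, with 2 of 10. Those of Tle4 were narrow, 407 to 535 bp. Over the pathway, 46 of 190 peaks (24.2%, 18.7 to 30.8%) were 1000 bp or wider, against 13.7% of peaks at other protein-coding genes. Without Tcf7l1 and Tcf7l2 it was 25 of 155 (16.1%, 11.2 to 22.7%), an interval that includes the 13.7%. The median width was 657 bp for the pathway and 601 bp for other protein-coding genes.

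**Figure D4:**
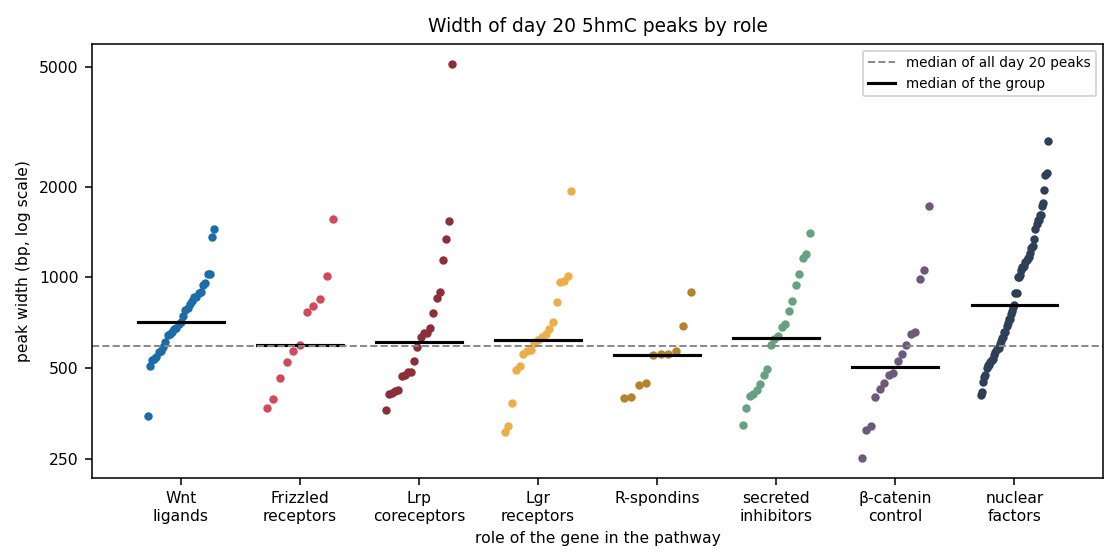
Width in bp (log scale) of each of the 190 day 20 peaks by role of the gene, with the group median as a black line and the median of all day 20 peaks, 591 bp, as a dashed line. The nuclear factors have the highest median, 809 bp, the genes of β-catenin control the lowest, 505.5 bp, and the highest point is the peak of 5126 bp in Lrp5.

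Lef1 and Tcf7 were the 2 nuclear factors with a day 20 peak within 1 kb of a start, and Tcf7l2 had one 1157 bp before a start that was also found at day 0. Lef1 has 4 annotated start windows, and its peak of 567 bp (131112741 to 131113307) covered 100 bases of the one whose start is at 131112791. The Tcf7 peak of 1206 bp (52281321 to 52282526 on chromosome 11) stopped 19 bases short of the window of the start at 52282595. The Tcf7l2 peak of 512 bp (55740398 to 55740909) ended 650 bases before the window of the start at 55741810. These windows, from RefSeq on GRCm38.p6, are shown because these 3 nuclear factors had the starts nearest to a day 20 peak, and the nearest window of each gene is given. In Lef1 (chr3:131112541-131112840, plus strand) capitals mark the bases under the peak. In Tcf7 (chr11:52282546-52282845, minus strand) and Tcf7l2 (chr19:55741560-55741859, plus strand) they mark each CG.
Lef1: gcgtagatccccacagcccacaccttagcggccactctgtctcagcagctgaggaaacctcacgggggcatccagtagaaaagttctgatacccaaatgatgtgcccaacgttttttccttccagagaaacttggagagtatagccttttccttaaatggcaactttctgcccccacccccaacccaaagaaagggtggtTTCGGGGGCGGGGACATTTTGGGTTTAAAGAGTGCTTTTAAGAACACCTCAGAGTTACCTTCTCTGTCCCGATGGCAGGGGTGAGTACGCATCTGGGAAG
Tcf7: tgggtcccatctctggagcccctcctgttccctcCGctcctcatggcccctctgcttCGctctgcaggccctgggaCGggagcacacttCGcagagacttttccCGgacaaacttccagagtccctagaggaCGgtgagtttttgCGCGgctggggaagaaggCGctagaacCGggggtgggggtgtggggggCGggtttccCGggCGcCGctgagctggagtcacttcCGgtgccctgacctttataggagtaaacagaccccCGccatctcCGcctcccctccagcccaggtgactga
Tcf7l2: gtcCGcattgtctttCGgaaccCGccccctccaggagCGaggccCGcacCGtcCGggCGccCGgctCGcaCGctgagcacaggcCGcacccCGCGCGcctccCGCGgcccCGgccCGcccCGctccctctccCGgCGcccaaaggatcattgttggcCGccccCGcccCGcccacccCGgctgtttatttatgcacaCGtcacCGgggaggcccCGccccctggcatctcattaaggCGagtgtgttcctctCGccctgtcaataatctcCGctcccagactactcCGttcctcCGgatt
The Lef1 window held 8 CG pairs, 4 of them under the peak, the Tcf7 window held 17 and the Tcf7l2 window held 34.

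Of the 42 pathway genes with a start window, 2 had it under a day 20 peak (Wnt1 and Lef1, 4.76%), against a background of 3.73%, and 4 had a peak within 1 kb of a start (9.52%), against 8.76%. Both shares are near the background. The windows of pathway genes were rich in CG, with a median of 27 pairs over 49 windows, against 13 over the windows of other protein-coding genes. Among those other genes, windows under a peak held a median of 7 and windows free of one a median of 13. The letters CTTTGA, the core of the sequence that TCF and LEF factors bind, were searched on both strands. They stood in 5 of the 49 windows (10.2%) and in 14.4% of the windows of other protein-coding genes. Other forms of the site were not counted. The median GC content was 67.7% in the pathway windows and 56.3% in the others, and its bearing on these shares was not tested.

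Peaks of the pathway lay along the genes much as those of other genes did. The midpoint was inside the gene for 168 of 190 (88.4%, 83.1 to 92.2%), against 88.8% at other protein-coding genes. The role with the lowest share was the Frizzled receptors, with 54.5%, followed by the Wnt ligands with 67.7%. Short genes had lower shares in general, 53.3% for pathway genes and 47.2% for other genes under 10 kb. At 10 to 30 kb these shares were 65.0% and 75.6%. Of the Wnt ligand genes, 2 were under 10 kb and 6 were 10 to 30 kb long. The bearing of gene length on the shares by role was not tested. For the 137 peaks at genes of known strand, 15 (10.9%) lay before the gene and 2 (1.46%) after it, against 8.68% and 2.46% at other genes. With each gene divided into 3 equal parts, 42 peaks (35.0%) lay in the part nearest the start, 38 (31.7%) in the middle and 40 (33.3%) in the part nearest the end. At other genes these shares were 35.2%, 32.7% and 32.1%. By distance to the nearest start, 11 of the 137 (8.03%, 4.54 to 13.8%) lay at 1 to 2 kb, against 5.02% at other genes, and the interval includes that value.

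**Figure D5:**
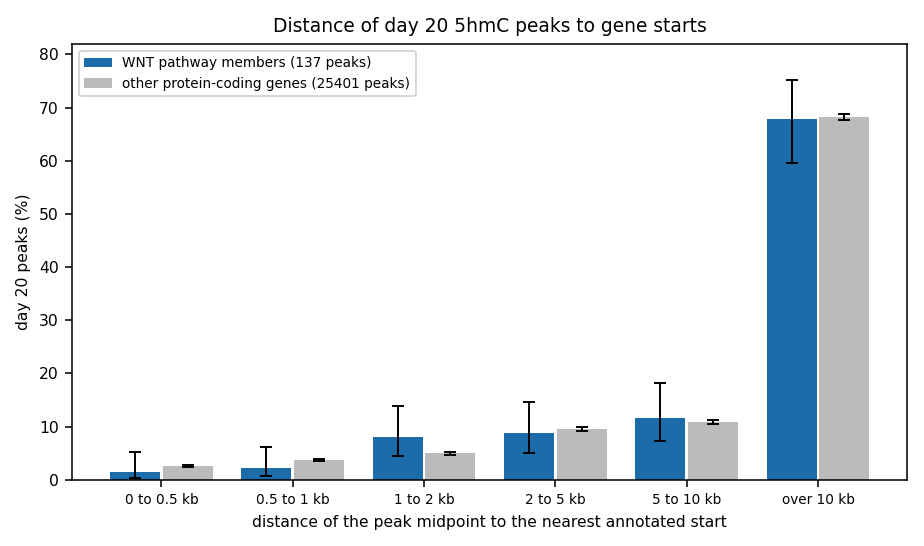
Percentage of day 20 peaks by distance of the midpoint to the nearest annotated start, for the 137 peaks of pathway genes with known strand (blue, left) and 25401 peaks of other protein-coding genes (grey, right), with Wilson 95% intervals. The bars run close to each other, with 67.9% and 68.3% over 10 kb from a start.

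The 3 day 0 peaks of the pathway each lay under a wider day 20 peak assigned to the same gene. In Wnt7a the day 20 peak was 1027 bp wide (91383741 to 91384767 on chromosome 6) and the day 0 peak 115 bp (91384088 to 91384202). In Tcf7l2 the day 20 peak, in Gm31734, was 512 bp wide, as given above, and the day 0 peak 143 bp (55740562 to 55740704). In Tle3, which encodes a corepressor of TCF factors, the day 20 peak was 585 bp wide (61409125 to 61409709 on chromosome 9) and the day 0 peak 178 bp (61409290 to 61409467). Of the day 0 peaks at other protein-coding genes, 50.6% lay wholly under a day 20 peak. All 3 pathway genes with a day 0 peak had a day 20 peak, against a background of 87.9% of protein-coding genes with a day 0 peak, so 3 of 3 is near the background. Genes with a peak in both lists were 5.17% of the pathway and 1.59% of protein-coding genes, which for 3 genes is an interval of 1.77 to 14.1%.

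A further 40 genes of WNT signalling outside the 58 were counted in the same way. Of these, 28 (70.0%, 54.6 to 81.9%) carried a day 20 peak, with a background of 43.8%, and 2, Csnk1d and Kdm2b, had a day 0 peak (5.00%, 1.38 to 16.5%), an interval that includes the background of 1.81%. Gene length was not taken into account here. The share was 13 of 17 for further genes of β-catenin control and 7 of 9 for further nuclear factors. It was 7 of 10 for further inhibitors and their regulators, a group that also took in the R-spondin gene Rspo4, which had 2 peaks. For ligand release and removal it was 1 of 4, a group of Porcn, Wls and Notum that also took in the ligand Wnt8a. Wls was the gene with a peak. With 4 to 17 genes each, the intervals of the further inhibitors (39.7 to 89.2%) and of ligand release and removal (4.56 to 69.9%) include the background of 43.8%. The interval of all 40 overlapped that of the 58 genes. Btrc, which recognises marked β-catenin, held 11 peaks, and Kdm2b, Nkd1 and the ubiquitin ligase gene Znrf3 held 9 each.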

How the data were processed

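Genomic DNA was enriched for 5hmC with Hydroxymethyl Collector, per the labels' protocols, and sequenced from 4 libraries. The authors deposited 2 peak lists with start and end positions, a gene symbol and a transcript accession, each from merged samples, so replicates could not be compared. MACS 1.4.2, BWA, cutadapt and FastQC appear in the submitters' processing notes, as does GRCm38 (mm10). What the 10-fold enrichment is relative to, read depth, and whether the day 19 library entered the merged list are not given in the sources used here.

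A gene had a peak where the authors' symbol equalled its name. For other genes, a symbol missing from the gene table was replaced through its transcript accession. All 58 members were found among 21900 protein-coding genes of RefSeq (GRCm38.p6). Strand and start positions came from RefSeq start windows, which matched 42 members. Fzd2, Fzd3, Fzd6, Fzd8, Wnt7b, Wnt10a, Lrp5, Lrp6, Lgr5, Rspo2, Rspo3, Sfrp1, Sfrp4, Dkk3, Axin1 and Apc had no window, and distance to the nearer gene end was used for them. Position refers to the peak midpoint. A day 0 peak was shared if any base of it overlapped a day 20 peak. Shares have Wilson 95% intervals, which reflect counting error alone. No test was made with 1 pooled list per stage, and members are not replicates.

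The members and lists were chosen with earlier results of these data known. Genes described in full were the 3 members of each role with the most day 20 peaks (ties by peaks per 10 kb), members with a day 0 peak, members with a peak within 1 kb of a start and the widest peak of each role. Other members given with values were chosen after these were seen. The counting step was run on simulated peaks, placed inside genes and labelled with the symbol of the gene. In that run 200 of 200 genes regained their planted number of peaks. Because the symbol was given, this bears on the counting and not on the authors' assignment of peaks to genes. Alternatives covered assignment, peak width, merging and background genes. Computation used Python 3.11.15, numpy 2.4.6, pandas 2.3.3, scipy 1.17.1 and matplotlib 3.10.9.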

Additional observations from a re-analysis of the deposited data

How the results depend on the processing

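With 1 pooled list per stage, presence of a peak depends on the authors' threshold and on read depth, neither of which could be varied here, and no replicate could be left out. No paired analysis was possible because the lists pool the replicates. Restricted to day 20 peaks of at least the median width of 591 bp, the share of pathway genes with a peak moved to 70.7%, with a background of 28.1%, and the number of peaks to 115. The same restriction moved the further 40 genes to 47.5%. With 2 kb in place of 1 kb, the share of peaks near a start moved to 11.6%, against 3.68%. The closer gene end was used where the strand was not known. A wider window can only raise this share, which at 1 kb was 6.61% at other protein-coding genes. Peaks of 1000 bp or wider fell to 16.1% without Tcf7l1 and Tcf7l2. By gene body overlap the share of pathway genes was 79.3%, with a background of 40.5%, and with 5 kb added on both sides 87.9%, with 50.8%. The shares by role stayed within their intervals under the 3 alternatives run for them. With 2 to 15 genes per role these intervals are wide, so few changes could have left them. The lowest share was 5 of 10 Frizzled receptors by gene body overlap, against 8 of 10 by symbol. Merging peaks within 1 kb left 176 peaks in the same 50 genes. By overlap with the gene body, 2 genes had a day 0 peak in place of 3. The alternatives on curated genes, on the further 40 genes and on the leading TCF genes were chosen after seeing the data.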
